A study of Mus musculus with 12 samples.

Results

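The genes described here encode the proteasome of the mouse striatum, with its assembly chaperones, activators and inhibitor. They were chosen by symbol alone, Psma, Psmb, Psmc, Psmd, Psme, Psmf or Psmg followed by a number, which 48 of the 57132 features carry. Of these, 42 reached a CPM (counts per 1000000 counts of the library) of 0.5 in at least 3 of the 12 libraries and were tested, and 6 did not. The tested genes comprise 15 of 19 of the core particle, all 17 of the regulatory particle, and 10 of 12 of the chaperones, activators and inhibitor.

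The proteasome degrades proteins that carry chains of ubiquitin. Its core particle is a barrel of stacked rings, in which outer alpha rings gate the entry and inner beta rings hold the cutting sites. A regulatory particle binds one or both ends: the ATPases of its base unfold the substrate, and the subunits of its lid include the enzyme that removes the ubiquitin chain. In neurons, protein breakdown by the proteasome is known to take part in the turnover of synaptic proteins.

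The study compared C57Bl/6 knockout mice that lack the receptor TAAR5, of the trace amine-associated family (TAAR5-KO), with their wild-type (WT) littermates to describe gene expression in the striatum. Both groups held 6 animals of both sexes, all aged 10 months, without further treatment. Total RNA of the striatum left after the cortex was removed from a coronal slice was depleted of ribosomal RNA (rRNA) and sequenced. The part of Taar5 that the allele removes and the sex of each library are not given in the sources used here.

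Taar5 itself was counted 1 to 6 times in each library labelled TAAR5-KO (NK1 to NK6) and 0 to 2 times in each library labelled WT (NK7 to NK12). These counts were not lower under the label TAAR5-KO, but they are few, and the part of Taar5 removed is not known. They cannot verify the genotypes, so every direction below is between labels and not between verified genotypes. Total counts ran from 11269915 to 34824450 per library, of which rRNA features took 64.3% to 88.1%. All 48 proteasome genes together received 2052 to 10543 counts per library. Over the 42 tested, the median count of a gene in a library was 81.5, with a range of 3 to 839. CPM below are on library sizes scaled by the TMM factors of edgeR, which ran from 0.375 to 2.47.

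No proteasome gene was called different between the labels. The likelihood ratio test of edgeR called 0 of the 42 at a Benjamini-Hochberg adjusted p under 0.1, where it called 1.65% of all 13902 features tested. The quasi-likelihood test of edgeR called 0 of the 42 and 0.453% of all features. DESeq2 also called 0, against 2.57% of the features to which it gave an adjusted p, but it gave none for 11 of the 42 genes. At an unadjusted p under 0.05 the likelihood ratio test found 3 of the 42, Psme4 and Psma4 higher and Psmd9 lower in the libraries labelled TAAR5-KO, where 11.9% of all features passed. In none of the 42 did the CPM of the 6 libraries of one label lie apart from those of the other, as they did for 1.01% of all features.

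**Figure D1:**
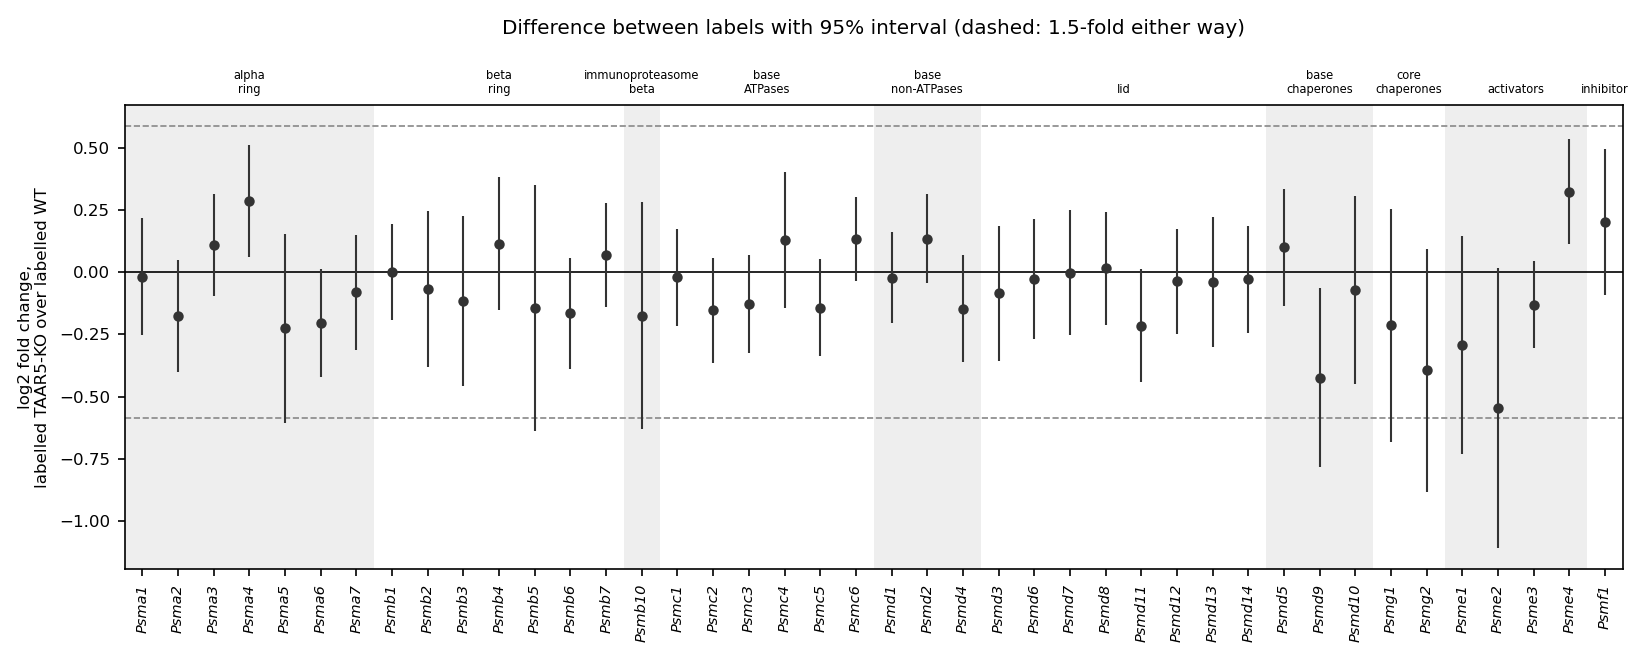
Log2 fold change of each of the 42 tested proteasome genes (vertical axis, libraries labelled TAAR5-KO over libraries labelled WT, 6 each), by role along the horizontal axis. Points are the edgeR estimates, bars their 95% intervals, and dashed lines a 1.5-fold difference either way; the intervals of 39 genes contain 0 and those of 34 lie between the dashed lines.

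The intervals show how large a difference these libraries left room for. The 95% interval of the fold change stayed within 1.5-fold either way for 34 of the 42 genes, including all 17 of the regulatory particle and 12 of the 15 of the core. It stayed within 2-fold for 41, the exception being Psme2. The 8 genes outside the 1.5-fold bounds were Psma5, Psmb5, Psmb10, Psme1, Psme2, Psmd9, Psmg1 and Psmg2, and for each of them the lower bound crossed and the upper bound did not. The median standard error of the log2 fold change was 0.117 over the proteasome genes, against 0.151 over the 9274 features whose mean level lies in the same range.

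The median log2 fold change was -0.07 over the 42 genes, with 12 positive and 30 negative values, and -0.01 over all features. By particle, the median was -0.08 for the core, -0.03 for the regulatory particle and -0.17 for the chaperones, activators and inhibitor. No p is given over the group. With total counts as the only scaling, the median of all features moved to -0.49 and that of the proteasome genes to -0.55.

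**Figure D2:**
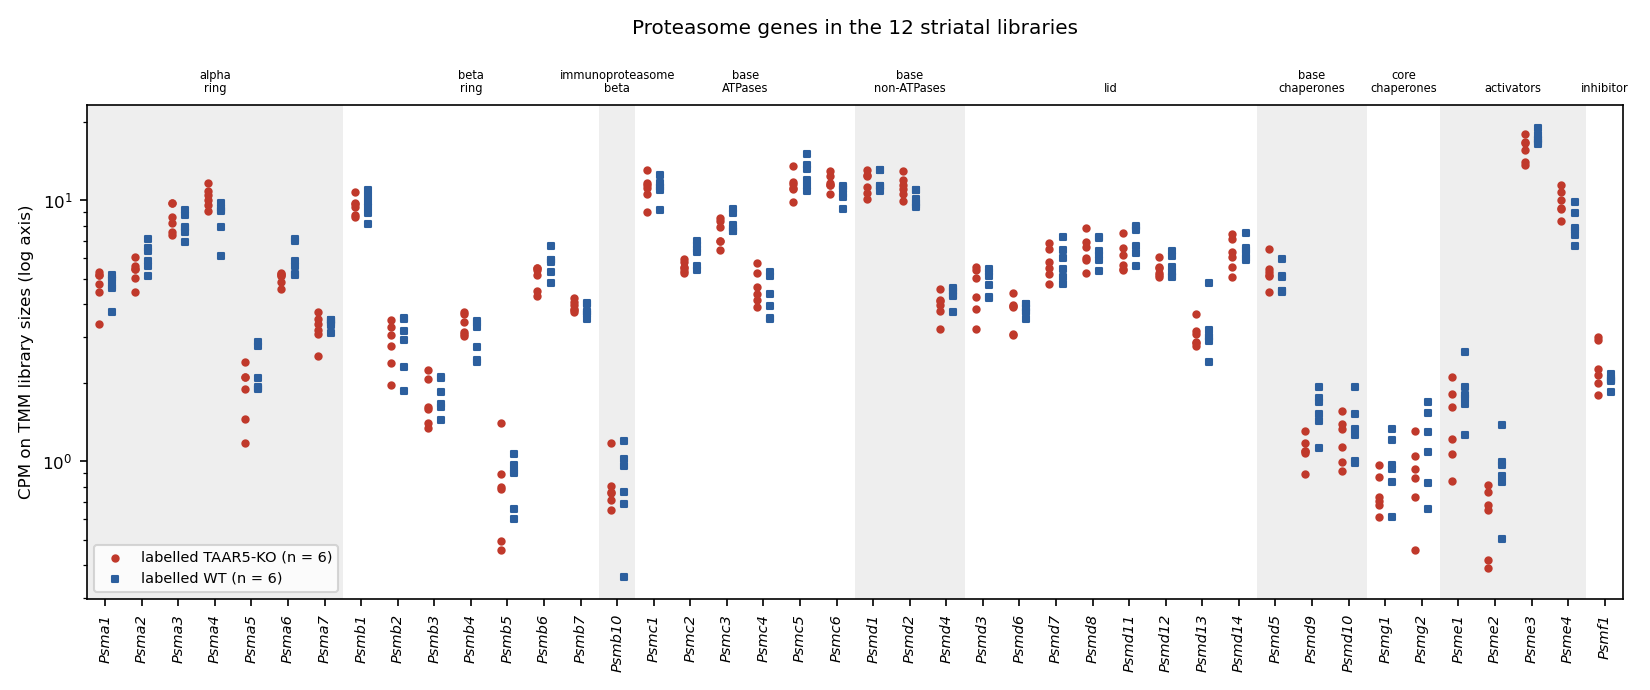
CPM of each tested proteasome gene (vertical log axis) in the 6 libraries labelled TAAR5-KO (red circles) and the 6 labelled WT (blue squares), by role along the horizontal axis. The points of the labels overlap in every gene; Psme3 lies highest, and Psmb5, Psmb10, Psmg1, Psmg2 and Psme2 lie around 1 CPM.

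The alpha ring subunits Psma1 to Psma7 form the gated ends of the core particle. Their log2 fold changes ran from -0.23 for Psma5 to 0.29 for Psma4. Psma4 had 9.09, 10.3 and 11.6 CPM (lowest, median, highest) in the libraries labelled TAAR5-KO, and 6.15, 9.15 and 9.77 in those labelled WT. The labels overlapped between 9.09 and 9.77 CPM, and the lowest values were those of the WT-labelled libraries NK11 and NK12. Psma4 differed by 0.29 on the log2 scale (SE 0.115), and its adjusted p was 0.251 by the edgeR likelihood ratio test. Scaling by total counts alone, which moved the median of all features to -0.49, gave -0.18 for Psma4, or 0.32 above that median. Of the bases in its exons, 13.5% have a copy of at least 98% identity elsewhere in the genome, and 4.81% overlap an exon of AY074887 on the opposite strand. Psma6 showed the opposite sign, with 4.57, 5.15 and 5.29 CPM in the libraries labelled TAAR5-KO and 5.19, 5.74 and 7.12 in those labelled WT. The same test gave it -0.20 on the log2 scale (SE 0.111) with an adjusted p of 0.464.

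The beta ring holds the cutting sites, which lie in Psmb5 (chymotrypsin-like), Psmb6 (caspase-like) and Psmb7 (trypsin-like), while Psmb1, Psmb2, Psmb3 and Psmb4 complete the ring. None of the 7 passed an unadjusted p under 0.05, and their log2 fold changes ran from -0.17 to 0.11. Psmb6 had 4.29, 5.29 and 5.52 CPM in the libraries labelled TAAR5-KO and 4.81, 5.85 and 6.68 in those labelled WT (log2 fold change -0.17, SE 0.113, adjusted p = 0.591). Psmb7 was the most even subunit, with 3.72, 3.90 and 4.21 CPM in the libraries labelled TAAR5-KO and 3.51, 3.74 and 4.05 in those labelled WT. Its log2 fold change was 0.07, with a 95% interval of -0.14 to 0.28. Of its exon bases, 11.8% overlap an exon of Nek6 on the opposite strand.

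Psmb5 had far fewer counts than the other catalytic subunits, but over 899 bases of exon, against 1872 in Psmb6 and 3421 in Psmb7. Per kilobase of exon, its mean over the 12 libraries was 0.922 CPM (SD 0.292). Psmb7 had 1.13 (SD 0.0594), within that spread, and Psmb6 had 2.89 (SD 0.353). The nearness of Psmb5 and Psmb7 rests on this length. The canonical transcript of Psmb7 has 1160 bases, and per kilobase of canonical transcript Psmb7 had 3.33 CPM and Psmb6 5.21. Psmb5 had 0.487 on that measure, which is too low because its canonical transcript is longer than the exons counted. Not scaled by length, Psmb5 had 0.460, 0.791 and 1.41 CPM in the libraries labelled TAAR5-KO and 0.601, 0.911 and 1.06 in those labelled WT. These values rest on 6 to 47 counts per library, and the interval of the log2 fold change of -0.14 reached from -0.64 to 0.35. Psmb5 is also the gene whose reads are hardest to place. Its exons on GRCm39 (chr14:54851576-54855479, minus strand) are matched over 99.8% of their length by the processed pseudogene Gm3375 (chr7:3230811-3231707), at 99.1% identity over 897 aligned bases. Of all stretches of 100 bases, the read length, in the exons of Psmb5, 36.6% occur unchanged elsewhere in the genome. A stretch of its coding exon 2 (chr14:54854171-54854230, minus strand) is shown beside the pseudogene (chr7:3231088-3231147, plus strand), because it shows how little tells the loci apart: capitals mark the only 2 of 60 bases that differ.
Psmb5: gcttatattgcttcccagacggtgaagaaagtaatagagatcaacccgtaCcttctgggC
Gm3375: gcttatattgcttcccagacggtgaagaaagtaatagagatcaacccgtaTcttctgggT

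Gm3375 received 14 counts over all 12 libraries and Psmb5 received 213. How the counting treated reads with several matches is not given in the sources used here, and what it did to the level of Psmb5 was not tested. Psma5 and Psma3 were the other tested genes with more than 10% of such repeated stretches, at 22.7% and 13.3%, through the processed pseudogenes Psma5-ps and Gm13835. The remaining 9 of the 12 tested genes with any repeated stretch stayed below that share, among them Psme2 at 8.71%.

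The immunoproteasome is the form in which Psmb8, Psmb9 and Psmb10, which interferon induces, take the places of Psmb5, Psmb6 and Psmb7. In the striatum Psmb8 and Psmb9 were near the counting limit. Psmb8 received 12 counts over the libraries labelled TAAR5-KO and 13 over those labelled WT, with 0 to 5 in any library. Psmb9 received 10 and 14, with 0 to 4 in any library. Both stayed below the filter and out of the reported fit, and a difference between labels was not detectable at this depth. The alternative without a filter included both and called neither. Psmb10, the one that passed, had 0.649, 0.762 and 1.17 CPM in the libraries labelled TAAR5-KO and 0.362, 0.864 and 1.20 in those labelled WT. The WT-labelled libraries held both the lowest and the highest value, and the log2 fold change of -0.18 (SE 0.233) had an adjusted p of 0.830. Per kilobase (kb) of exon, its mean level over the 12 libraries was 0.482 CPM, below every subunit of the constitutive rings. Further core genes known for restricted expression, such as Psma8 of the testis and Psmb11 of the thymus, received at most 5 and 3 counts in any library.

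Genes of interferon response and antigen presentation, listed by name, gave the setting of these low counts. Of 11 such genes 8 were tested and 0 called by any of the 3 tests. Of the 8, 1 passed an unadjusted p under 0.05, as did 11.9% of all features. Their summed level was 24.5 to 40.1 CPM in the libraries labelled TAAR5-KO and 31.2 to 42.1 in those labelled WT. Microglia are a brain source of immunoproteasome subunits, and all 7 microglial markers had negative log2 fold changes, 5 of them at an unadjusted p under 0.05, where 11.9% of all features passed. The likelihood ratio test called 2 of the 7 lower in the libraries labelled TAAR5-KO, where 1.65% of all features were called, DESeq2 called 2 and the quasi-likelihood test 0. Their summed levels were 27.8 to 39.6 CPM under the label TAAR5-KO against 39.3 to 48.5 under the label WT. The part of these cells in the values of Psmb10, Psme1 and Psme2 was not tested. In bulk tissue, fewer cells of a type and less RNA per cell cannot be told apart.

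The 6 ATPases Psmc1 to Psmc6 form the ring of the base that unfolds substrates. Their log2 fold changes ran from -0.15 for Psmc2 to 0.13 for Psmc6, and none passed an unadjusted p under 0.05. Psmc5 had 9.86, 11.4 and 13.6 CPM in the libraries labelled TAAR5-KO and 10.8, 12.6 and 15.1 in those labelled WT, and differed by -0.14 on the log2 scale (SE 0.0992, adjusted p = 0.598). Psmc6 had the narrowest interval of the proteasome genes, -0.04 to 0.30.

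The other base subunits are Psmd1 and Psmd2, large scaffolds, and Psmd4, a receptor for ubiquitin chains. Psmd1 differed by -0.02 on the log2 scale (95% interval -0.20 to 0.16), Psmd2 by 0.13 (-0.04 to 0.31) and Psmd4 by -0.15 (-0.36 to 0.07). In the lid, Psmd14 is the enzyme that cuts the ubiquitin chain off the substrate and Psmd7 is its partner. Their log2 fold changes were -0.03 (95% interval -0.24 to 0.18) and -0.00 (-0.25 to 0.25). The other 6 lid subunits, Psmd3, Psmd6, Psmd8, Psmd11, Psmd12 and Psmd13, form its scaffold. Psmd11, which also touches the core particle, had the smallest p of the regulatory particle. It had 5.40, 5.93 and 7.50 CPM in the libraries labelled TAAR5-KO and 5.59, 7.20 and 7.96 in those labelled WT (log2 fold change -0.21, SE 0.116, adjusted p = 0.457). Psmd13 had 2.76, 2.97 and 3.67 CPM against 2.41, 3.01 and 4.82, so its widest values were in WT-labelled libraries, and its log2 fold change was -0.04 (SE 0.133).

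The activators replace the regulatory particle at the ends of the core. Psme4 (chr11:30721726-30830361 on GRCm39) encodes a large nuclear activator and had the smallest p of all proteasome genes. Its CPM were 8.37, 9.70 and 11.4 in the libraries labelled TAAR5-KO and 6.67, 7.75 and 9.89 in those labelled WT. The labels overlapped through NK4, NK5 and NK6 on one side and NK9 and NK10 on the other. The log2 fold change was 0.32 (SE 0.108, 95% interval 0.11 to 0.53), with an adjusted p of 0.129 by the likelihood ratio test, 0.213 by the quasi-likelihood test and 0.134 by DESeq2. With 1 library left out, the adjusted p ran from 0.0569 without NK4 to 0.351 without NK7. It passed the threshold without NK4, NK9 (0.0728) or NK10 (0.0608) and in none of the other 9 such fits. Without NK4 the calls over all features also went from 229 to 415. Removing each library's GC trend gave a log2 fold change of 0.24 (adjusted p = 0.380), and the rRNA share as a covariate gave 0.23 (adjusted p = 0.415). Scaling by total counts alone gave -0.15, which is 0.34 above the median of all features in that fit.

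Psme1 and Psme2 form the activator that interferon induces, and Psme3 forms a related nuclear one. Psme2 had the largest estimate and the widest interval, with 0.391, 0.666 and 0.809 CPM in the libraries labelled TAAR5-KO and 0.505, 0.921 and 1.38 in those labelled WT. Its log2 fold change of -0.55 (95% interval -1.11 to 0.01) had an adjusted p of 0.427, so neither no difference nor one of 2-fold lay outside the interval. Psme1, its partner, differed by -0.29 on the log2 scale (SE 0.224, adjusted p = 0.648). Psme3 was the proteasome gene with the most CPM, 13.7 to 18 in the libraries labelled TAAR5-KO and 16.4 to 19.0 in those labelled WT, and differed by -0.13 on the log2 scale (95% interval -0.31 to 0.05). The inhibitor Psmf1 differed by 0.20 on the log2 scale (SE 0.15, adjusted p = 0.637).

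Psmd5, Psmd9 and Psmd10 are chaperones that assemble the base. Psmd9 (chr5:123307476-123388194) had 0.893, 1.10 and 1.30 CPM in the libraries labelled TAAR5-KO and 1.13, 1.61 and 1.93 in those labelled WT. All WT-labelled libraries but NK8 lay above every library labelled TAAR5-KO. The log2 fold change was -0.42 (SE 0.184, 95% interval -0.78 to -0.06, adjusted p = 0.306). Psmd5 and Psmd10 had log2 fold changes of 0.10 and -0.07. Psmg1 and Psmg2 pair to assemble the alpha ring, and their log2 fold changes were -0.21 (SE 0.238) and -0.40 (SE 0.250, adjusted p = 0.554). Their partners in later assembly, Psmg3 and Psmg4, did not pass the filter, with 13 and 17 counts over the libraries labelled TAAR5-KO and 18 and 13 over those labelled WT.

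Subunits that sit in the same particle in equal number were not counted at equal levels per length. In the alpha and beta rings the mean over 12 libraries ran from 4.47 CPM per kb (SD 0.638) for Psma6 through a median of 1.60 to 0.762 (SD 0.132) for Psmb3, a ratio of 5.87. In the regulatory particle it ran from 8.67 CPM per kb (SD 1.07) for Psmc5 through 2.08 to 0.931 (SD 0.180) for Psmd13, a ratio of 9.32. The lowest ATPase, Psmc2, had 1.18 CPM per kb.

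**Figure D3:**
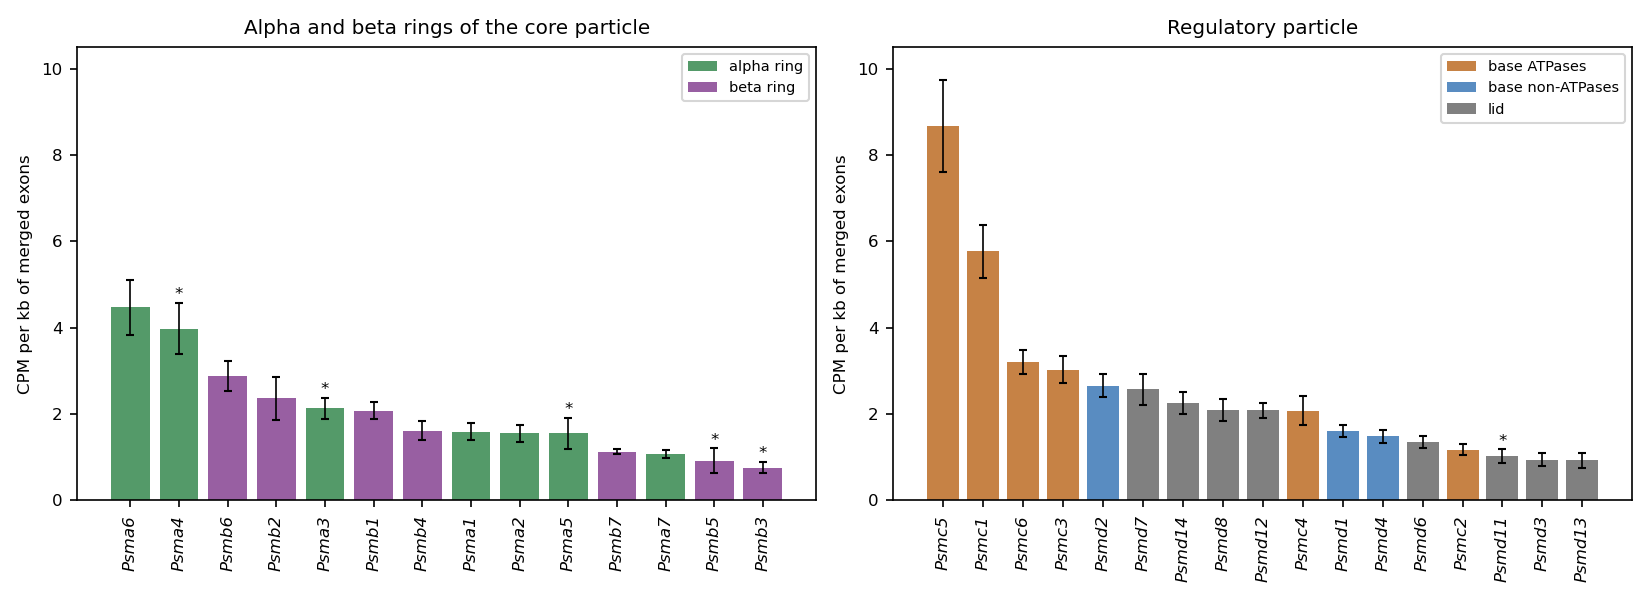
Mean CPM per kb of merged exons (vertical axis) of the constitutive ring subunits (left) and the regulatory particle (right), in falling order, with bars of 1 SD over the 12 libraries. Colours mark the role, and an asterisk a gene with copies over at least 10% of its exon bases; Psmc5 and Psmc1 stand above all others, and most neighbours overlap.

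Most neighbours in these orders did not differ beyond their spread. Of 13 neighbouring pairs in the rings, 11 overlapped within 1 SD, and only Psmb1 above Psmb4 kept its order in all 12 libraries. Of 16 pairs in the regulatory particle, 14 overlapped within 1 SD and 4 kept their order in all libraries: Psmc5 above Psmc1, Psmc1 above Psmc6, Psmd7 above Psmd14 and Psmc4 above Psmd1. With the length of the canonical transcript of GENCODE M39, chosen after the data were seen, the ratio was 10.9 in the rings and 5.33 in the regulatory particle, with Psma6 and Psmc5 first and Psmd13 last as before. Other places moved, such as Psma7 from 12 to 4 and Psmb2 from 4 to 13 in the rings. Of the pairs named above, Psmb1 fell below Psmb4 (1.59 against 2.66 CPM per kb), Psmc1 below Psmc6 (4.24 against 4.95) and Psmc4 below Psmd1 (3.12 against 3.50). Psmc5 stayed above Psmc1 and Psmd7 above Psmd14. An order kept in all libraries thus held for the length used. For 4 of the 14 ring genes (Psma5, Psmb1, Psmb2 and Psmb5) and 2 of the 17 of the regulatory particle (Psmc1 and Psmc5) the canonical transcript is longer than the exons over which reads were counted, so their levels on it are too low. The 10.9 rests on one of these, Psmb5, as the lowest gene, and is no estimate of the spread of levels.

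The summed level of the 42 tested genes on TMM library sizes was 218 to 234 CPM (median 226) in the libraries labelled TAAR5-KO. It was 221 to 246 (median 226) in those labelled WT. TMM scaling itself evens the level of most genes between libraries, so this narrow range is no trait of the proteasome genes. Before TMM scaling, all 48 proteasome genes took 611 to 1648 of each 1000000 counts outside rRNA, a ratio of 2.7 between libraries. The sum of the regulatory particle per length over that of the core was 1.34 to 1.62 in the libraries labelled TAAR5-KO and 1.33 to 1.56 in those labelled WT. After removal of the label means, the Pearson r of log2 CPM across the 12 libraries was taken for pairs of genes. Its median was -0.04 over 105 pairs within the core, 0.09 over 136 pairs within the regulatory particle and 0.03 over all 861 pairs. These medians describe values that share library depth. None was taken over other features, so whether they are low for genes counted at this depth was not tested.

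**Figure D4:**
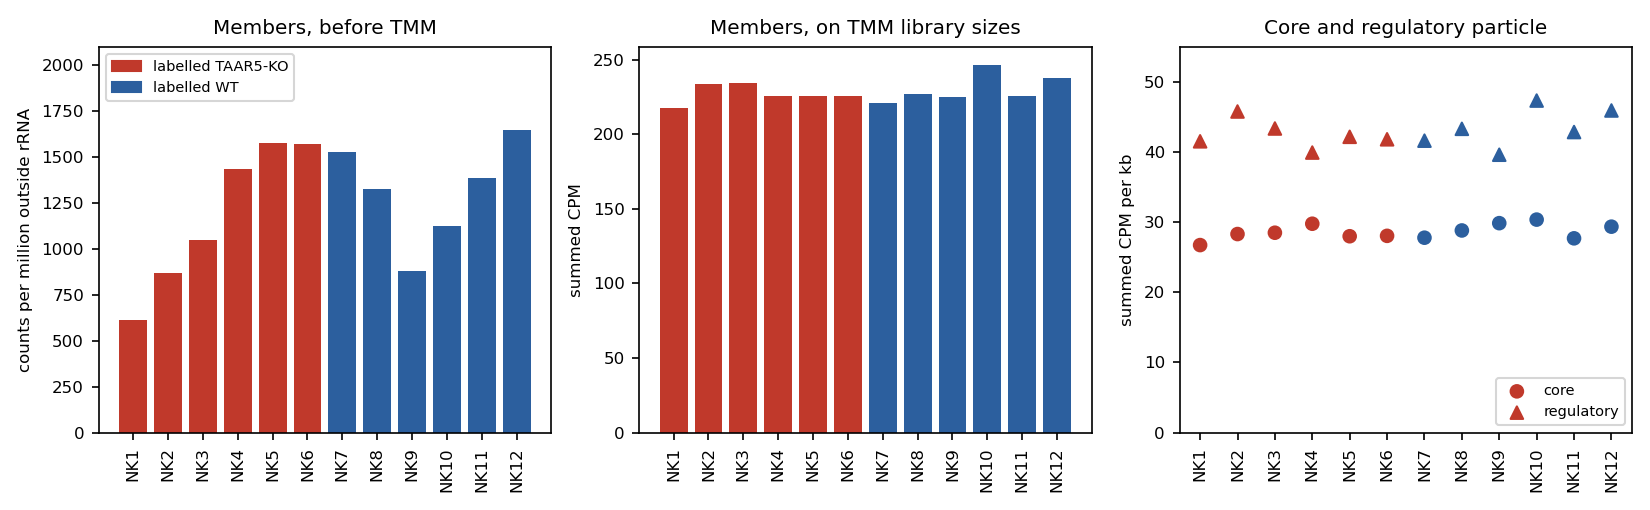
Sums over proteasome genes in each library (red for the label TAAR5-KO, blue for the label WT). Left, share of all 48 genes in the counts outside rRNA, scaled to 1000000. Middle, CPM of the 42 tested genes on TMM library sizes. Right, CPM per kb of the tested genes of the core (circles) and regulatory particle (triangles). The left panel spans 611 to 1648 and the middle panel 218 to 246, with overlapping labels; the lowest value of both panels is in a library labelled TAAR5-KO and the highest in one labelled WT.

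Other genes of the ubiquitin pathway were read from a list of 34, drawn up by role: further proteasome subunits and assembly factors, the regulators Nfe2l1 and Nfe2l2, ubiquitin genes, activating enzymes and shuttle factors. Of these, 32 were tested. The likelihood ratio test of edgeR called 0 higher and 1 lower in the libraries labelled TAAR5-KO, where it called 1.65% of all features. The quasi-likelihood test and DESeq2 called 0. At an unadjusted p under 0.05 the likelihood ratio test found 3 of the 32, 1 higher and 2 lower, where 11.9% of all features passed. The median log2 fold change of the list was 0.01, with 18 positive and 14 negative values. Uba6, an enzyme that activates ubiquitin, differed by 0.24 on the log2 scale (SE 0.0945, adjusted p = 0.225), with 8.93 to 10.0 CPM in the libraries labelled TAAR5-KO and 6.90 to 9.17 in those labelled WT. Nfe2l1, which is known to induce proteasome genes when the proteasome is impaired, differed by -0.08 on the log2 scale (SE 0.0985, adjusted p = 0.812), and Pomp, which matures the core, by 0.04 (SE 0.113).

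Markers of cell types in the striatum and its surroundings gave the composition of the libraries. Over all features, the likelihood ratio test called 1.65% and the quasi-likelihood test 0.453%. DESeq2 called 2.57% of the features to which it gave an adjusted p. An unadjusted p under 0.05 in the likelihood ratio test was reached by 11.9% of all features. All 10 spiny neuron markers had positive log2 fold changes, 4 of them at an unadjusted p under 0.05, with 0 called by the likelihood ratio test, 0 by the quasi-likelihood test and 1 by DESeq2, and sums of 370.0 to 481 CPM in the libraries labelled TAAR5-KO against 220.4 to 409 in those labelled WT. All 6 astrocyte markers were negative, 4 at an unadjusted p under 0.05, with 1 called by the likelihood ratio test, 0 by the quasi-likelihood test and 1 by DESeq2. All 6 markers of mature oligodendrocytes were negative, 2 at an unadjusted p under 0.05, with 0 called by either test of edgeR and 1 by DESeq2. Of the lists for endothelium (6 tested), choroid plexus (5), ependyma (3) and cortical pyramidal neurons (5), 0 genes were called by any of the 3 tests and 0 passed an unadjusted p under 0.05 in the likelihood ratio test, though the choroid plexus sum spanned 2.45 to 469 CPM under the label TAAR5-KO and 3.42 to 286 under the label WT. The part of cell type shares in the values of the proteasome genes was not tested.

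Promoters show which sequence features these genes share that the choice by symbol did not use. RefSeq windows from 250 bases before to 50 bases after the start (GRCm38.p6) were matched by symbol for 40 of the 48 genes and searched on both strands, where matches of different motifs may share bases. The core of the antioxidant response element, TGACNNNGC, to which Nfe2l1 and Nfe2l2 bind, was found in 6 of the 40 windows (15.0%) and in 14% of 27025 genes. The core of the ETS motif, CCGGAAG, was found in 14 of the 40 (35%) and in 9.93% of all genes. Among the 35 windows of tested genes, it stood in 9 of 14 of the regulatory particle and in 1 of 12 of the core. The CCAAT box was found in 35% of the proteasome windows and 41.1% of all, GAAANNGAA, part of the interferon-stimulated response element, in 17.5% and 9.76%, and TTCNNNGAA, the gamma-activated sequence, in 7.50% and 9.55%. A match is a description of letters and not a binding site.

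The windows below show the antioxidant response element core, in capitals, in 3 genes discussed above. They lie at chr14:54855481-54855509 (minus strand), chr14:45567044-45567072 (minus) and chr5:123366212-123366240 (plus) on GRCm39.
Psmb5: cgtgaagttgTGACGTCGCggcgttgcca
Psmc6: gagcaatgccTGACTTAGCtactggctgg
Psmd9: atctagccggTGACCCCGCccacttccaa

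The next windows show the ETS core, in capitals, in the one core particle gene that held it, in an ATPase, in a scaffold and in the activator with the smallest p. They lie at chr12:55445467-55445495 (plus strand), chr12:100076422-100076450 (minus), chr16:20470365-20470393 (minus) and chr11:30721711-30721739 (plus) on GRCm39.
Psma6: agagccaccacCCGGAAGcccgcggaccg
Psmc1: aatcgccaccgCCGGAAGtgcatccacca
Psmd2: tgtcctccagaCCGGAAGcgccctgcgga
Psme4: gtggccccgccCCGGAAGtgacttgaggc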

How the data were processed

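Striatal RNA of 12 mice was sequenced from directional libraries as single-end reads of 100 bases. The authors trimmed the reads with cutadapt 4.1, aligned them with STAR 2.7.11b to GRCm39 (GENCODE M35) and counted them with featureCounts 2.0.6. The values the authors deposited are raw counts per gene, beside the merged exon length. Whether counting used strand, and what became of reads with several matches, is not given in the sources used here. The table's 12 additional count columns were left out. Each column carries a genotype and an NK number that no label ties to an animal, so it served as a replicate of its genotype.

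From these counts, features that reached a CPM of 0.5 on total counts in 3 or more libraries were kept, TMM factors were computed, and labels were compared with estimateDisp, glmFit and glmLRT in edgeR 4.0.16 (R 4.3.3), at a Benjamini-Hochberg adjusted p under 0.1 over all features. The test and threshold are those of the study's methods, whose text does not say on which library sizes the CPM filter was computed. On total counts it kept 13902 features, and on TMM library sizes, an alternative, 13053. The paper's results give 13053 as the number of features it tested, so the fit reported here kept more features than the study. No proteasome gene was called under either filter. With the filter that kept 13053 features, the fit called 234, of which 135 were higher and 99 lower in the libraries labelled TAAR5-KO. The paper reports fewer calls, with more of them lower than higher in TAAR5-KO. The number and balance of its calls were therefore not reproduced, and the cause was not tested. The shares of all features called given above are those of the fits run here and not of the study. Intervals are the log2 fold change plus or minus 1.96 standard errors. Levels per length are CPM over the deposited length in kb. The test was run on simulated data first. Copies were searched with BLAST on GRCm39 (at least 98% identity over 100 bases).

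Alternatives tried were edgeR's quasi-likelihood test, DESeq2 1.42.0, other scalings, filters and dispersions, removal of length or GC trends, the rRNA share as a covariate, removal of rRNA features, an adjusted p under 0.05 and leaving out each library in turn. The canonical transcript length and the removal of genes with copies were added after the data were seen. All members of the gene family may be named, with values by library for the 3 smallest p if none is called, the immunoproteasome subunits and those they replace, and the highest and lowest level per length in each particle. Of the list of other pathway genes, those called and the 3 with the smallest p were to be named, of which some are not reported here, and Nfe2l1 and Pomp were chosen beside this rule, after their values were seen. The members and lists were chosen with earlier results of these data known. Counting error is covered by the tests only as far as reads are independent molecules, and p-values measure the spread between these libraries.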

Additional observations from a re-analysis of the deposited data

Results flagged for a closer look

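For each of the 42 genes, the 6 libraries of each label were examined for a single library far from the other 5. Of 84 groups, 4 held one, and chance alone gives about 1 in 20. Psma1 had 3.72 CPM (34 counts) in the WT-labelled library NK9, where the others had 4.62 to 5.16. Psmb10 had 1.17 CPM (15 counts) in NK2, labelled TAAR5-KO, where the others had 0.649 to 0.806. Psmd4 had 3.74 CPM (31 counts) in the WT-labelled library NK10, where the others had 4.30 to 4.62. Psmd13 had 4.82 CPM (40 counts) in NK10 as well, where the others had 2.41 to 3.19. NK9 and NK10 were among the libraries with the fewest counts on proteasome genes.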

How the results depend on the processing

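No proteasome gene of the core or regulatory particle was called under any of the 25 alternatives, and the number of proteasome genes called was 0 in all but 3 of them. Leaving out 1 library gave 0 to 1 calls, the 1 being Psme4 without NK4, NK9 or NK10. In the list of other pathway genes, 1 was called, and 0 were under the quasi-likelihood test, DESeq2, total counts as the only scaling, no filter, the GC trend removed, the rRNA share as a covariate, robust dispersions and an adjusted p under 0.05. Leaving out 1 library gave 0 to 2 calls there, the 2 without NK9. Scaling by total counts alone gave median log2 fold changes of -0.55 over all proteasome genes, -0.60 in the core, -0.53 in the regulatory particle and -0.61 in the chaperones, activators and inhibitor, while all features shifted to -0.49. Leaving out 1 library gave medians of -0.08 to -0.03 over all, -0.10 to -0.04 in the core, -0.05 to -0.01 in the regulatory particle and -0.22 to -0.13 in the rest. The ratio of highest to lowest level per length was 10.9 in the rings and 5.33 in the regulatory particle with canonical transcript lengths, which for 4 ring genes and 2 of the regulatory particle exceed the exons counted, and 4.15 in the rings without genes that have copies. The number of calls over all features was 229 in the reported fit, 63 under the quasi-likelihood test, 7 with total counts only, 93 without a filter, 83 with the GC trend removed, 98 with the rRNA covariate, 108 at an adjusted p under 0.05, and 85 (without NK11) to 415 (without NK4) with 1 library left out. No paired analysis was possible because the columns carry NK numbers that no label ties to an animal or to a library of the other genotype.

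Depth limits the low genes: a count of 0, read as up to 3 counts, allows 0.0679 to 0.362 CPM. Psmb8 and Psmb9 were therefore not compared in the reported fit, and the intervals of 8 tested genes include a 1.5-fold difference.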
